A study of Caenorhabditis elegans with 2 samples.

Results

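The tRNA genes on the autosomes of Caenorhabditis elegans were examined for binding of Y75B8A.6, a worm protein known here by its sequence name. All genes that the Ensembl annotation of the ce11 (WBcel235) genome classes as tRNA on chromosomes I to V were taken, which gave 336 of 612 nuclear tRNA genes and of 46890 nuclear genes in all. A gene was called bound when a peak summit lay within 500 bp of its 5′ end on either side. The peaks came from chromatin immunoprecipitation sequencing (ChIP-seq), in which DNA that is crosslinked to a protein is pulled down with an antibody and sequenced. Both libraries were biological replicates of 1 group, made from the CRISPR insertion strain RW12275, which carries the allele st12275 on chromosome III and so expresses Y75B8A.6 with a TY1, EGFP and 3xFLAG tag. Whole L4 larvae of 48 h, synchronised by starving the hatched L1 larvae after bleaching, were used with an antibody against GFP. A value therefore does not tell tissues apart, and which tissues hold the tagged protein was not examined here. No second condition was compared and no untagged library was analysed here, so signal that strongly transcribed genes may give without the tagged protein was not tested. Read depth is unknown from peak lists. Intervals of shares below are exact (Clopper-Pearson) 95% intervals, and those of differences are built from the exact intervals of both shares. They cover counting error only, and genes that share a summit or a sequence are not independent.

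Transfer RNA genes are transcribed by RNA polymerase III. Their promoter lies inside the gene, in an A box near the start and a B box towards the end, which are bound by the factor TFIIIC. TFIIIC then places TFIIIB just upstream of the start, TFIIIB recruits the polymerase, and transcription ends at a run of T after the gene. The worm genome holds many identical copies of most tRNA genes, and a large part of them lie inside introns of protein-coding genes.

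The sequences below show the internal promoter letters in some bound genes and, for 2 sets of identical copies, the differing bases just before a bound and an unbound copy. All 6 printed genes match the letters searched for both boxes, but, as the counts further on show, not all bound genes do and most unbound genes do too. They are RefSeq WBcel235 sequence, 5′ to 3′ on the strand of the gene. Capitals mark matches to the letters of the A box core (TNGNNNAG, searched in the first 30 bases) and of the B box core (GTTCNANNC, searched in the whole gene), both on the gene strand only. T03E6.t1, a glutamine tRNA gene at chrV:16592237-16592308 on the minus strand, had the highest signal of the bound genes. B0244.t3 (glycine, chrIII:5762057-5762126, minus), F29C4.t1 (arginine, chrIV:143982-144054, plus) and Y54G2A.t3 (aspartate, chrIV:2805627-2805698, plus) come from the 3 isotypes with the most bound genes. With signals of 74.6, 72.6 and 64.9 they were not the strongest of their isotypes, but the strongest among the genes eligible for printing. W09D6.t2 (proline, chrIII:11066848-11066919, minus) and T23F1.t1 (lysine, chrV:15465086-15465158, plus) were bound genes with identical copies that were not.
T03E6.t1: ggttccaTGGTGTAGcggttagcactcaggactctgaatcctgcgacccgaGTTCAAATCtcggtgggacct
B0244.t3: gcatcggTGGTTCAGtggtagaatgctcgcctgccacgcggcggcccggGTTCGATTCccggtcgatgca
F29C4.t1: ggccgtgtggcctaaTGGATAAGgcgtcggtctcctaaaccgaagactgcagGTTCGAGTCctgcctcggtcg
Y54G2A.t3: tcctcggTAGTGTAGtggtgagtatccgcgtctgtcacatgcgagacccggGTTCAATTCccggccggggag
W09D6.t2: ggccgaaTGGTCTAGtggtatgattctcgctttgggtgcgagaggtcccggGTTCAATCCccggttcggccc
T23F1.t1: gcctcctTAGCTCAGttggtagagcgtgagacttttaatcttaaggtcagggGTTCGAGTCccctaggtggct

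The match to the A box letters began at base 8 in 5 of these 6 genes and at base 16 in F29C4.t1. From base 8 F29C4.t1 reads tggcctaa, which departs from the searched letters only in the last one. Its match at base 16 therefore need not be its A box. Base 8 was the position in 248 of the 278 autosomal tRNA genes with a match, and base 16 in 23. The 50 bases before a bound and an unbound copy of the same gene are set below each other. W09D6.t2 (chrIII:11066920-11066969, minus) was bound and T22F3.t1 (chrV:3582270-3582319, plus) was not. T23F1.t1 (chrV:15465036-15465085, plus) was bound and F18C5.t1 (chrII:6565198-6565247, plus) was not.
W09D6.t2 upstream: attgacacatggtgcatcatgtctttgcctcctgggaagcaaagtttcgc
T22F3.t1 upstream: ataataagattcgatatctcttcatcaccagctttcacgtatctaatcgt
T23F1.t1 upstream: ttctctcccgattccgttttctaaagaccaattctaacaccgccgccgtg
F18C5.t1 upstream: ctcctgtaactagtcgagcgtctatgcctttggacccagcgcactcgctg

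The proline pair had the same base at 21 of these 50 positions and the lysine pair at 12 of 50. A and T made up 52% of the bases before bound W09D6.t2 and 66% before its unbound copy, but 50% before bound T23F1.t1 and 42% before its unbound copy. Over all autosomal tRNA genes, the A and T content of the 50 upstream bases had a median of 54% (32% to 76%) in bound and 56% (30% to 80%) in unbound genes.

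Of the 336 genes, 84 were bound in the series' larger thresholded list, called the main list here (25%, interval 20.5% to 29.99%). By the same rule 1.86% of all nuclear genes were bound. The 84 genes took 76 summits, of which 8 served 2 genes each, and those 76 were 10.2% of the 746 autosomal summits of the main list. Every autosome held bound genes, from 13 of 78 on chromosome V (16.7%) to 20 of 66 on chromosome I (30.3%), with intervals that overlapped. The tRNA genes of the X chromosome had 107 of 276 bound (38.8%, interval 33.0% to 44.8%). That difference of 13.8 percentage points was much smaller in the other lists: by the conservative list of the series the autosomes were lower by 2.99 points, by the list of replicate 2 alone by 4.17, and by that of replicate 1 alone by 0.854. The replicate lists held far fewer tRNA genes, 42 autosomal and 46 X genes in replicate 2 and 30 and 27 in replicate 1. The conservative list held 91 autosomal and 83 X genes. Why the difference varied between lists was not tested.

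The summits sat on or close to the genes. Measured along the gene from its 5′ end, the summit of a bound gene had a median position of 16 bp, with quartiles of -5.5 and 35.25 bp, in genes of 68 to 122 bp (median 72). The summit lay inside the gene for 49 of the 84, upstream of it for 28 and past its end for 7. It was within 50 bp of the start for 61 genes and within 100 bp for 76. Of the 8 genes with a summit farther off, the most distant were T05A8.t2, a leucine tRNA gene (484 bp upstream, on a summit shared with T05A8.t1), ZK970.t1, a proline tRNA gene (403 bp downstream), and B0244.t1, a glycine tRNA gene (172 bp upstream, shared with B0244.t3). The start of clpp-1, the protein-coding host of ZK970.t1, lies 443 bp from that tRNA start on the same side, so the summit was closer to the coding start. The nearest genes outside the limit were ZK970.t4 at 572 bp, F08G5.t2 at 581 bp and Y105C5B.t4 at 619 bp. The sonicated fragments of 200 to 800 bp per the labels are longer than a tRNA gene, so a summit does not separate the A box from the B box or from the upstream bases. Bound tRNA genes on the X had a median position of 18 bp.

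**Figure D1:**
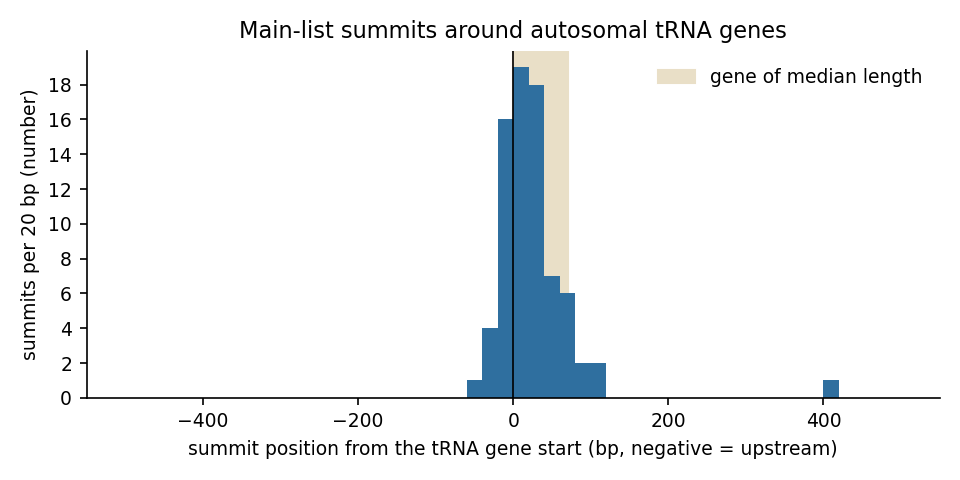
Number of main-list summits (y axis) per 20 bp of distance from the 5′ end of the nearest autosomal tRNA gene (x axis, bp, negative upstream), with a gene of the median length of 72 bp shaded. The 76 summits pile up over the gene, with 49 inside it, 21 upstream and 6 downstream. A single summit lies 403 bp past a tRNA start, closer to the start of the protein-coding gene clpp-1.

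The signal of a peak is a value set by the authors' caller on a scale that is not stated, so it ranks peaks within 1 list only. Over the 84 bound genes it ran from 47.8 to 108.2 in the main list, with a median of 70.1. The median over their 76 summits was 69.0, against 59.9 over the other autosomal summits of that list.

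The strongest was T03E6.t1, where the best peak within 500 bp had a signal of 108.2 in the main list, 39.3 in replicate 1 and 69.0 in replicate 2. Its summit was 37 bp upstream of the gene, and the start of the tRNA gene is 266 bp from that of the protein-coding gene srh-269. W09D6.t2 and W09D6.t1, identical proline tRNA genes on opposite strands of an intron of rsa-2, shared a summit of 107.2 (66.7 in replicate 1 and 40.9 in replicate 2). T23F1.t1 and T23F1.t2, for lysine and proline, also shared one, at 99.9 (43.0 and 60.5). The lowest rank among these 3 sites in either replicate was 0.576% of the candidate peaks, that of T03E6.t1 in replicate 1.

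Next came genes that each had a summit of their own. B0523.t1, for tryptophan, in an intron of fli-1, the worm relative of the actin-binding protein Flightless, reached 93.9 (53.3 in replicate 1 and 40.1 in replicate 2). T22A3.t1, for glycine, in an intron of set-18, reached 92.4 (64.4 and 29.0). K02D7.t1, for aspartate, overlapping an exon of grl-26, reached 91.1 (39.0 and 51.6). B0350.t1 for lysine (90.97) and Y82E9BR.t1 for glycine (87.7) completed the 10 genes of highest signal. The order differed between replicates: W09D6.t2 was first of these in replicate 1 and T03E6.t1 in replicate 2.

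At the low end, C27A2.t1 (isoleucine) had 47.8 in the main list and B0228.t1 (glutamine) 49.7, the lowest signals of the bound genes. For a few bound genes 1 replicate carried the peak. The best peak of B0212.t1 (proline, in an intron of osm-9, which encodes an ion channel) ranked at 0.286% of the list in replicate 1 and at 50.2% in replicate 2. C28A5.t2 (arginine) ranked at 24.3% in replicate 1 and at 1.56% in replicate 2. These 4 genes were named after their values were seen, as the lowest in the main list or in a replicate.

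Bound genes were found for 18 of 21 isotypes, an isotype being the amino acid the tRNA carries. Glycine had most, 15 of 35, followed by arginine with 8 of 17 and aspartate with 7 of 15. Lysine, the second largest isotype with 28 genes, had 4, and asparagine had 1 of 14. Tyrosine (0 of 11, interval up to 28.5%), phenylalanine (0 of 8, up to 36.9%) and the single selenocysteine gene K11H12.t1 had none. On the X 3 of 8 tyrosine and 3 of 6 phenylalanine genes were bound. Cysteine had 3 of 6 on the autosomes and 0 of 7 on the X.

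**Figure D2:**
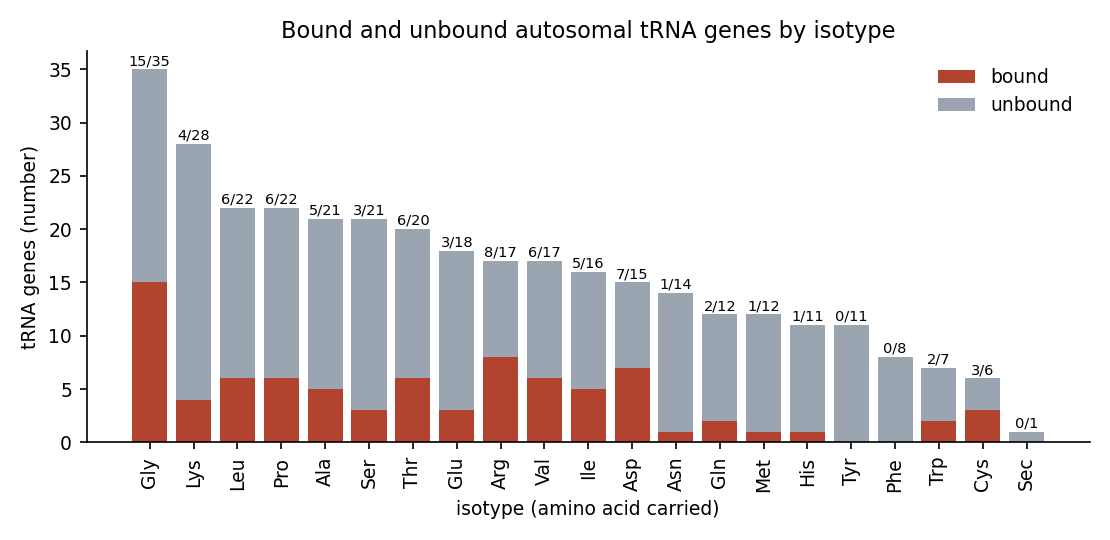
Autosomal tRNA genes (y axis, number) by isotype (x axis), divided into bound (lower part of each bar) and unbound; the label gives bound over all. Glycine had 15 of 35 bound, lysine 4 of 28, and tyrosine 0 of 11.

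Within an isotype, anticodons could differ. The anticodon was read from the sequence in 314 genes. All 3 alanine genes with anticodon CGC were bound, against 1 of 12 with AGC, and all 3 arginine genes with TCG, against 0 of 4 with TCT. Glycine had 10 of 20 bound with TCC, 5 of 11 with GCC and 0 of 3 with CCC. Glutamate had 3 of 9 bound with CTC and 0 of 9 with TTC. These anticodons were picked after the counts were seen, from 46 with small numbers each, and the differences were not tested.

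An unbound isotype was not an isotype without signal. In the ranked list behind the main list, which also holds candidate peaks below the threshold, all 8 phenylalanine genes had a peak within 500 bp, and 6 of them one in the top 10% of the list. The best was Y95D11A.4, with a signal of 76.5, a score of 1000 and a replicate 2 rank of 0.228% against 10.95% in replicate 1; its summit lay 345 bp downstream of the start and was not in the main list. Tyrosine genes were lower: 10 of 11 had a peak, 3 of them in the top 10%, with a median rank of 20.2% against 2.48% over all autosomal tRNA genes with a peak. All 11 tyrosine genes have an annotated intron. Over the 17 autosomal genes with one, 1 was bound, an isoleucine gene, and 8 had a peak in the top 10%; on the X 5 of 12 with an intron were bound.

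Identical copies of a gene were often bound in part. The 336 genes had 137 distinct sequences, and 43 sequences had more than 1 autosomal copy. Of these 43 sets, 26 held both bound and unbound copies, 1 was bound at every copy and 16 at none. The largest, a glycine gene with anticodon TCC, had 10 of 18 autosomal copies bound, and the lysine gene with CTT had 3 of 15. The asparagine gene with GTT had 1 of 13, and the proline gene with TGG and the aspartate gene with GTC had 5 of 11 each. Reads that lie wholly inside identical copies cannot be told apart, and the sources used here do not say how such reads were placed.

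The unbound copies of these 5 sets could rank high. The highest unbound glycine copy, C12C8.t5, had a signal of 55.2 in the ranked list, and the highest unbound lysine copy, C16C8.t1, had 55.6, with a summit in the list of replicate 2 and in the conservative list. Y116F11A.t1 (asparagine) had 56.9 and was likewise in the conservative list. T22F3.t1, the proline copy in an intron of pygl-1, the worm glycogen phosphorylase, had 45.1, with 21.2 in each replicate. Its bound counterpart W09D6.t2 had 107.2 and the same gene sequence.

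The share bound was higher among genes with identical copies elsewhere in the nuclear genome than among single-copy genes, with intervals that overlap at their ends. Of 86 genes with no identical copy 13 were bound (15.1%, interval 8.30% to 24.5%), and of 250 with at least 1 other copy 71 were (28.4%, 22.9% to 34.4%). The share was highest, 25 of 63 (39.7%), where a sequence had 20 or more copies. Those 63 genes are copies of only a few sequences, which differed: 10 of 18 were bound for glycine TCC and 3 of 15 for lysine CTT. The share did not climb steadily between, with 9 of 42 at 2 to 4 copies, 14 of 45 at 5 to 9 and 23 of 100 at 10 to 19. The difference of 13.3 percentage points had an interval of 2.44 to 22.4. It was 4.30 by the list of replicate 2 alone (-4.83 to 11.4) and 2.62 by that of replicate 1 alone (-5.68 to 8.79). In the ranked list, 51.2% of single-copy genes and 82.5% of those with 20 or more copies had a peak in the top 10%. On the X 18 of 57 single-copy genes (31.6%) and 89 of 219 others (40.6%) were bound. The X share was not highest at 20 or more copies, with 23 of 56 (41.1%) against 11 of 25 (44%) at 2 to 4.

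Hosted tRNA genes and those outside protein-coding genes were bound at nearly the same share. A tRNA gene counted as hosted where a protein-coding gene spanned all of it, and 49 of 194 hosted genes (25.3%) and 35 of 139 outside (25.2%) were bound; the 3 that overlapped a coding gene in part were not. The difference was 0.0779 percentage points, with an interval from -9.94 to 9.76. Most hosted genes lay in introns, with 47 of 188 bound, and 2 of 6 that overlapped exons were. On the strand of the host 27 of 116 were bound (23.3%), and on the opposite strand 22 of 78 (28.2%). The bound genes lay in 44 of the 158 hosts, which included hgo-1, the homogentisate oxidase of tyrosine breakdown (W06D4.t1, the bound asparagine gene, 61.5), tyr-6 (Y73B6BL.t1, valine, 87.3) and col-72, a collagen gene (W09G10.t1, the bound histidine gene, 60.95).

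The share bound was somewhat higher near protein-coding starts, by a difference whose interval included 0 in the main list and not under every alternative. The median distance to the nearest one was 1229 bp for bound and 1725 bp for unbound genes. Within 1000 bp 36 of 123 were bound (29.3%) and beyond it 48 of 213 (22.5%), a difference of 6.73 points whose interval ran from -3.28 to 17.1. By the list of replicate 1 alone that difference was 0.0229 (-6.38 to 7.38), and by that of replicate 2 alone it was 8.50 (0.594 to 17.2). The interval also lay above 0 with summits taken within 1000 bp (0.597 to 22.0), with near set to 2000 bp (2.53 to 21.4) and with peaks of either series list (0.190 to 21.9). The lowest share, 7 of 45 (15.6%), was beyond 5000 bp, and the highest, 22 of 69 (31.9%), within 500 bp. Genes with another tRNA gene within 1000 bp had 29 of 99 bound (29.3%), against 55 of 237 (23.2%) for the rest.

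**Figure D3:**
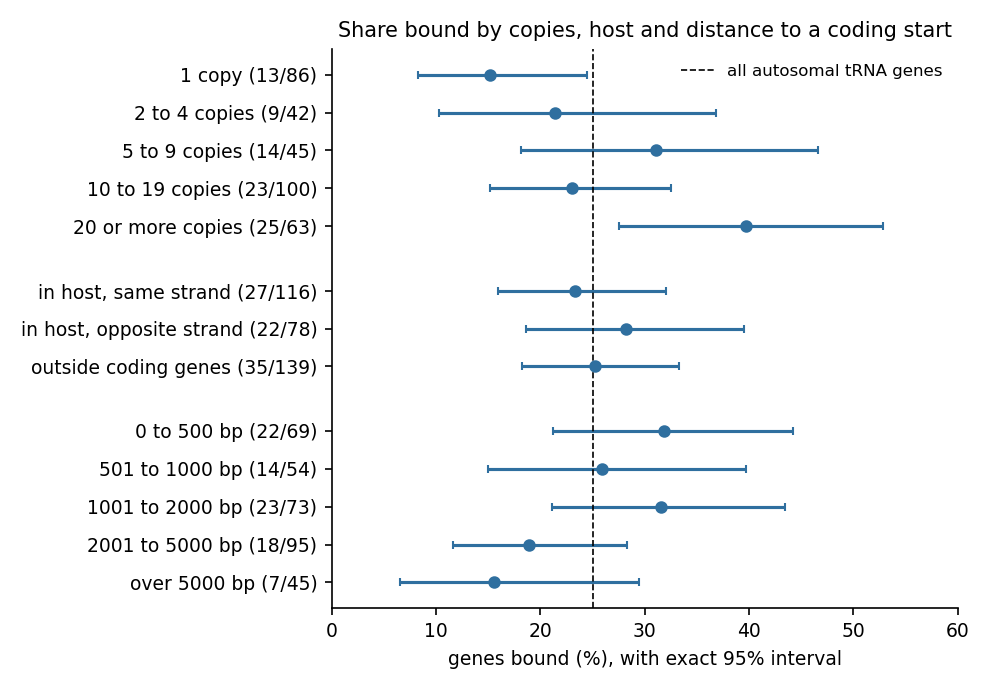
Share of autosomal tRNA genes bound (x axis, %) by number of identical copies, position relative to a protein-coding host, and distance to the nearest protein-coding start; points are shares with exact 95% intervals, labels give bound over all, and the dashed line is the 25% of all genes. The host classes lie at the line, and the share is 15.1% at 1 copy and 39.7% at 20 or more.

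Most tRNA genes held the internal promoter letters, whether bound or not. The B box core was found in 319 of 336 genes (94.9%), in 98.8% of bound and 93.7% of unbound ones. Of the 17 genes without a match 1 was bound, T15B12.t1, a methionine tRNA gene with a signal of 82.2. It is 1 of 6 identical autosomal copies, which all lack the match, and the others were unbound. On the X 5 of 8 genes without the B box letters were bound. The A box core was found in 278 genes (82.7%), in 79.8% of bound and 83.7% of unbound genes, so that 17 of the 84 bound genes had no match to it. Among these were the bound copies of the largest set, the glycine gene with anticodon TCC. A run of 4 or more T within 30 bases after the gene was present in 332 genes, among them all 84 bound ones. Matches are letters in a window and not tested sites, and a gene without a match can still hold the box in other letters.

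The signal at tRNA genes went well below the threshold. In the ranked list behind the main list, 305 of the 336 genes had a candidate peak within 500 bp, and 220 (65.5%) had one in the top 10% of its 103934 peaks. By the same measure 10.01% of all autosomal genes and 12.6% of autosomal protein-coding genes had a peak in the top 10%. Of the 252 unbound tRNA genes 136 (54.0%) did, and 19 had one in the top 1%. The best ranked of these after Y95D11A.4 were Y110A2AL.t1 (leucine, signal 66.8, also in the conservative list), F33D11.t2 (arginine, 61.5), Y116F11A.t1, and Y65A5A.t4 (histidine, 56.2, also in the conservative list). M01E10.t1 and M01E10.t2, glutamate genes that share a candidate peak of 48.1, reached the score of 830 that is the lowest in the main list and were not in that list.

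**Figure D4:**
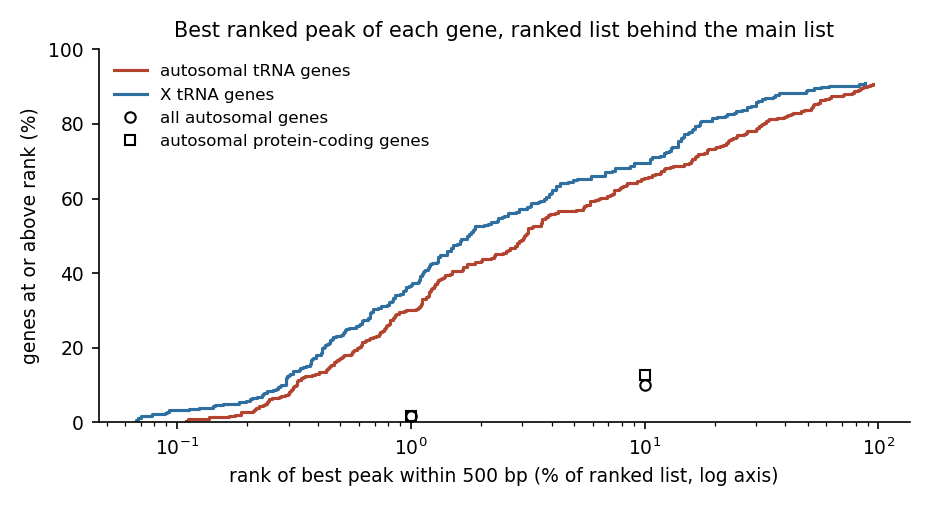
Cumulative share of genes (y axis, %) whose best candidate peak within 500 bp of the start lies at or above a given rank (x axis, % of the ranked list, log axis). Of the autosomal tRNA genes 30.1% have a peak in the top 1% and 65.5% in the top 10%, against 1.71% and 10.01% of all autosomal genes (open circles); the X tRNA genes lie above the autosomal ones.

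The same held in each replicate on its own. In replicate 1, 180 of the 336 genes (53.6%) had a peak in the top 10% of the candidates, against 7.65% of all autosomal genes. In replicate 2, 173 (51.5%) did, against 6.10%. Among unbound genes the shares were 39.7% and 36.9%. Of the 84 bound genes 51 had a peak in the top 1% in replicate 1, and 51 in replicate 2.

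The tRNA genes past the threshold were mostly different ones in the 2 replicates. The list of replicate 1 alone held 30 of the 336 genes (0.672% of all nuclear genes) and that of replicate 2 alone 42 (0.855%), and 8 genes were in both, or 26.7% of the 30 and 19.05% of the 42. For the tRNA genes of the X the corresponding shares were 66.7% of 27 and 39.1% of 46, and for all other genes 56.6% of 258 and 46.6% of 313. The 8 genes, named after their values were seen, were T09B4.t1 (isoleucine), Y82E9BR.t1, B0523.t1, C24H11.t1 (threonine), Y73B6BL.t1, T23F1.t1, T23F1.t2 and T03E6.t1, all of them in the main list. The conservative list, whose ranked list pairs the peaks of replicates 1 and 2, held 91 of the 336 (1.74% of all nuclear genes). It shared 70 with the main list, so that of these 2 lists 14 genes were in the main one alone and 21 in the conservative one alone. Of the 84 main-list genes, 23 were also in the list of replicate 1, 36 in that of replicate 2 and 33 in neither, and 110 of the 336 were in at least 1 of the 4 thresholded lists.

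Over the 261 genes with a candidate peak in both replicates, the best signals correlated with a Pearson r of 0.46 and a Spearman rho of 0.48. Among the 84 bound genes r was -0.073 and rho -0.065, and among the 177 unbound ones r was 0.18 and rho 0.23. These are descriptions over genes that share the same libraries, and the division into bound and unbound narrows the range of both signals.

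**Figure D5:**
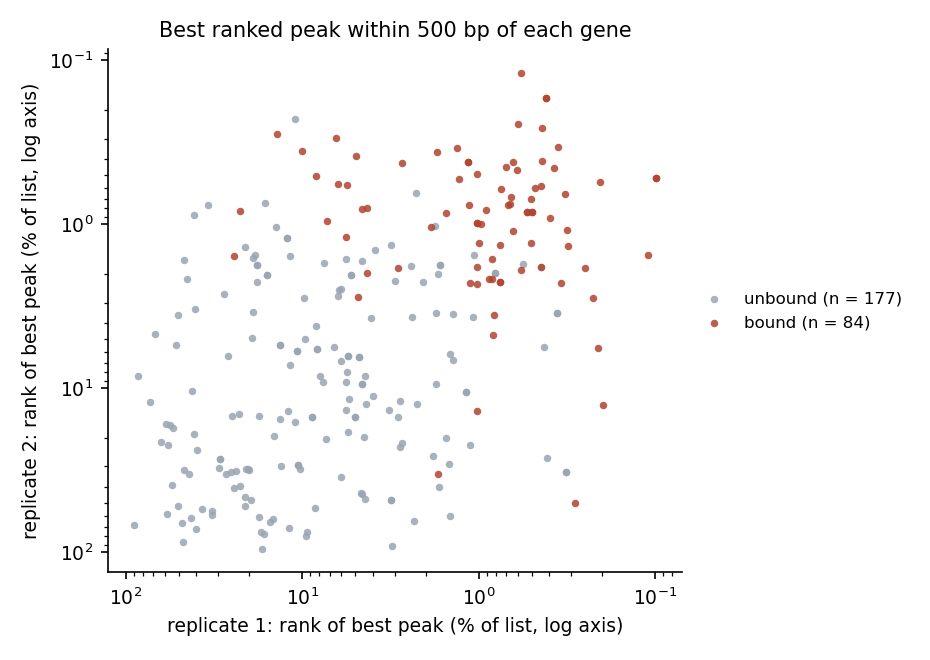
Rank of the best candidate peak within 500 bp of each autosomal tRNA gene in replicate 1 (x axis) and replicate 2 (y axis), as % of the list on reversed log axes, so that strong peaks lie to the upper right; each point is a gene with a peak in both. Most of the 84 bound genes crowd above a rank of 10% in both replicates without a diagonal among them, and 177 unbound genes spread over the whole range. Bound genes were selected by a list derived from both replicates, so their pattern does not measure how well the replicates match.

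Genes for the machinery that transcribes or charges tRNAs had 1 bound member in each of 2 lists, counts too small to set apart from the 1.86% of all nuclear genes. Of 18 genes for RNA polymerase III and its factors the bound one (5.56%, interval 0.141% to 27.3%) was rpc-2, which encodes the second largest subunit of the polymerase, with a signal of 50.7 and a summit 108 bp from the start. Of 33 genes annotated as aminoacyl-tRNA synthetases it was ears-2, for a mitochondrial glutamyl-tRNA synthetase (83.6, 7 bp), or 3.03% (0.0767% to 15.8%). In the ranked list 1 of the 18 and 10 of the 33 had a candidate peak in the top 10%, where 12.6% of autosomal protein-coding genes did. The TFIIIB genes brf-1 and tbp-1 and the polymerase III repressor gene mafr-1 were not bound, and their best candidate peaks ranked at 19.7%, 65.7% and 13.5% of the list.

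Other genes transcribed by RNA polymerase III varied. The gene for the RNA of RNase P, rpr-1, the enzyme that trims the 5′ end of tRNAs, had a summit 2 bp from its start with a signal of 105.9, in the range of the strongest tRNA genes. The Y RNA gene yrn-1 was not bound, and its best candidate ranked at 12.3%. None of the 16 annotated 5S rRNA genes was bound (interval up to 20.6%). Of these 16, 10 had a candidate peak, 5 of them in the top 10%, and the highest signal, 83.0 at a copy of rrn-4.2, was not in the main list. The 5S genes are a repeated family, so the limit on reads from identical copies holds for them too.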

How the data were processed

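Peak lists from 2 biological replicate ChIP-seq libraries were analysed, 4 thresholded and 4 ranked. The build is ce11 per the labels. Aligner and peak caller, with versions, were not given in the sources used here. Per the deposited descriptions, all lists derive from the alignments and 1 input file, and the thresholded ones also from a file whose role is not stated. Signal was set per peak by the authors' caller, and the deposited score of the authors follows the irreproducible discovery rate, which compares peak ranks between lists. The ranked list behind the main list pairs peaks that are in neither replicate's list and whose origin is not stated. The lists carry no read totals, so precision rests on numbers of genes and peaks.

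Genes came from Ensembl release 115, and isotypes and sequences from RefSeq WBcel235, the same assembly. Identical copies were counted over all nuclear tRNA genes. The anticodon was read from a 7-base loop between stems of 5 pairs, with at least 4 formed. A gene took its nearest main-list summit and, in ranked lists, the highest signal within 500 bp; ranks are percentages of the list length. No tests between groups were possible in 1 group, so shares and medians are given, with exact intervals of shares. Intervals of differences combine the exact limits of both shares and are not exact themselves. Synthetase and polymerase lists were taken from gene descriptions, and one synthetase entry, prx-10, entered through a shared description; no U6 genes could be named from the annotation.

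The genes named were the 10 bound genes of highest signal, the strongest of each isotype, the 5 best ranked unbound genes, the strongest bound and unbound copy in the 5 largest sets of copies, and the 3 genes nearest to each side of the 500 bp limit, with selenocysteine genes; others are marked where named. Sequences were printed only from chromosomes II to V, for genes with no identical copy on the remaining autosome: the strongest such bound gene, the strongest of the 3 isotypes with the most bound genes, and the best ranked bound and unbound copy of the 2 largest sets that held both. The members, lists and rules were chosen with earlier results of these data known. The alternatives were other lists, windows, assignments and class definitions. The counting was tested on simulated data. Versions were matplotlib 3.10.9, scipy 1.17.1, pandas 2.3.3, numpy 2.4.6 and Python 3.11.15.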

Additional observations from a re-analysis of the deposited data

How the results depend on the processing

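The count of 84 bound genes was 30 to 42 by the thresholded list of 1 replicate alone, and 59 to 105 under the other alternatives run. The difference between hosted and outside genes, 0.0779 percentage points, changed sign to -4.96 by the conservative list, -0.460 with main-list peaks at or above the median signal, -0.341 within 100 bp and also with each summit given to its nearest tRNA gene, -2.63 for hosts on the same strand, and -2.68 with peaks of either series list, an alternative chosen after seeing the data; by 1 replicate alone it was -6.75 to -0.590. The difference between autosomes and X, -13.8 points, was -2.99 by the conservative list and -4.17 to -0.854 by 1 replicate alone. With main-list peaks at or above the median signal it was -7.80 (-14.6 to -1.06), and with peaks of either series list -8.24 (-16.0 to -0.411). The causes were not tested. Over the alternatives run, the median summit position stayed between 10 and 18 bp, the difference by copies between 2.62 and 16.2 points (12.4 among genes with the B box letters, also chosen after seeing the data), and that by distance to coding starts between 0.0229 and 12.2 points, without a change of sign. The interval of the difference by copies, 2.44 to 22.4, included 0 within 100 bp and with each summit given to its nearest tRNA gene (both -0.639 to 19.1), and by either replicate alone. The replicate lists used in place of the main list are the authors' own calls, and both replicates rest on 1 input file. No paired analysis was possible because there is only 1 group. The lack of read counts and the identical copies limit what a value at a single tRNA gene can show.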
